A study of Homo sapiens with 16 samples.

Results

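Insulator peaks are peaks of DNMT3B or OCT1 whose first listed chromatin state is state 8, the insulator state. They were taken from 4 peak lists, 1 for each antibody and treatment, on chromosomes 1 to 22, with each peak counted once. The authors' description calls the vehicle lists enriched in control and the PTS lists enriched in PTS. Peaks that start in 4 intervals crowded with peaks were left out on chromosomes 8, 9, 10 and 17. This gave 875 insulator peaks of 118439 peaks in the lists. OCT1 had 658 in vehicle and 98 upon PTS, and DNMT3B had 94 in vehicle and 25 upon PTS.

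The cells were MCF10CA1a, an established, highly invasive breast cancer line that descends from MCF10A cells transformed with HRAS, so both treatments carry that oncogene. They received pterostilbene (PTS), a stilbenoid polyphenol, at 7 µM for 9 days, or the ethanol vehicle alone. DNA bound by DNMT3B or by OCT1 was sequenced after chromatin immunoprecipitation (ChIP) in 3 biological replicates of each treatment. Each antibody had its own input, with 1 library for each treatment. Each deposited list pools the 3 replicates, so no error between replicates and no test between treatments could be computed. The intervals given here are 95% intervals of counting error only, and in pooled ChIP more cells with a bound site and more binding in each cell cannot be told apart.

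Insulators are stretches of DNA that keep an enhancer from acting on a promoter beyond them or stop the spread of closed chromatin. In vertebrates most of them are bound by CTCF, a zinc finger protein that halts cohesin and so anchors chromatin loops. At some sites, such as the imprinted control region of *H19* and *IGF2*, methylation of CpG sites keeps CTCF from binding. DNMT3B is a DNA methyltransferase that sets new methylation, and OCT1, encoded by *POU2F1*, is a POU-domain transcription factor that binds an octamer of DNA. The insulator state was learned by ChromHMM in human mammary epithelial cells (HMEC), which are normal cells and not the cells studied, largely from CTCF signal. CTCF binding itself was not measured here.

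The window of a summit, the highest point of a peak, with 100 bases to either side of it, was searched on both strands for a CTCF core, CCANNAGNNGGC, and for the octamer ATGCAAAT. Of the highest 4 places with a CTCF core, 3 are shown first, from the plus strand of GRCh37, 5′ to 3′, with the core in capitals. On the minus strand the core reads as its reverse complement.
*PRIM2* intron, chr6:57412421-57412621: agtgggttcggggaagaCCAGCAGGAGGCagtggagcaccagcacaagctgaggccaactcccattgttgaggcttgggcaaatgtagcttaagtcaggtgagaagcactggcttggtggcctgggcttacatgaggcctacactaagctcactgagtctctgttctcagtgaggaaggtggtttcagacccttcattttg
*RNVU1-17* side, intergenic, chr1:149204327-149204527: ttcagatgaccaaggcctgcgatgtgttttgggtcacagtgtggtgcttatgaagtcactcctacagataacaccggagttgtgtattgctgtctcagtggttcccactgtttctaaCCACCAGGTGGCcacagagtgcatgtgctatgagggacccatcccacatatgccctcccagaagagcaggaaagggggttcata
*MIR5195* side, intergenic, chr14:107183207-107183407: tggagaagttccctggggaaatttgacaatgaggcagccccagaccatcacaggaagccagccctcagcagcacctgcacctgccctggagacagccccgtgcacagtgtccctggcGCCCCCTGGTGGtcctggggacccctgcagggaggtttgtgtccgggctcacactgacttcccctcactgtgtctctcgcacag

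The place near *MIR5195* had the core on the minus strand, and those at *PRIM2* and *RNVU1-17* had it on the plus strand. Only 5 places held an octamer, and the 2 highest are shown with octamer and core in capitals, both with the octamer on the minus strand. *KCNJ6*, which encodes a potassium channel subunit, held both motifs in 1 window. *GABBR2*, which encodes a subunit of the GABA-B receptor, held the octamer alone.
*KCNJ6* intron, chr21:39073103-39073303: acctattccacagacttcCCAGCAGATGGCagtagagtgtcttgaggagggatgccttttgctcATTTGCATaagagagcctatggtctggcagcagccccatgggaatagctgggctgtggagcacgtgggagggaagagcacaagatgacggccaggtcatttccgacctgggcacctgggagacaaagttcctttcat
*GABBR2* intron, chr9:101078196-101078396: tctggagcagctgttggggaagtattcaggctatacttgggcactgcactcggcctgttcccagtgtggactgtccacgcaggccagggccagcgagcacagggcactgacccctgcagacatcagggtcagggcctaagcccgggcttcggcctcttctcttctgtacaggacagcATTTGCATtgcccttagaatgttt

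The 2 highest places of all held neither motif, and the highest is shown. Another place without them, the highest DNMT3B insulator peak, held a repeat of a 2-base unit over 68 bp, given in capitals.
*LOC654342* side, intergenic, chr2:91772538-91772738: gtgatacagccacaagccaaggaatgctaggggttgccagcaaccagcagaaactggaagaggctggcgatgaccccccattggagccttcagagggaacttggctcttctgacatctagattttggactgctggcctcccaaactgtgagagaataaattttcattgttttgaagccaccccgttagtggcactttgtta
*FOXJ1* side, intron of *EXOC7*, chr17:74117299-74117499: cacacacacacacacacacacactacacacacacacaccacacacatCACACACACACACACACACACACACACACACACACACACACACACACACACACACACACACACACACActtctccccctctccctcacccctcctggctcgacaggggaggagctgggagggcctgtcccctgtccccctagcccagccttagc

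The CTCF core served as a check of the state, since the state itself rests on CTCF. It lay in 60 of 658 OCT1 peaks in vehicle (9.12%, 95% Wilson interval 7.15 to 11.6), against 1.26% of all OCT1 vehicle peaks and 1.29% of windows 5 kb to either side of the insulator peaks. For DNMT3B in vehicle, 11 of 94 held it (11.7%, interval 6.66 to 19.8), against 0.837% of all its peaks and 0.532% of the windows 5 kb away. Upon PTS, 10 of 98 OCT1 peaks (10.2%, interval 5.64 to 17.8) and 4 of 25 DNMT3B peaks (16%, interval 6.40 to 34.6) held it, against 1.06% and 0.705% of all peaks. None of the 196 windows beside OCT1 peaks and none of the 50 beside DNMT3B peaks upon PTS held it, with Wilson intervals that reach 1.92% and 7.13%. Active promoter peaks upon PTS held the core in 8 of 242 for OCT1 (3.31%, interval 1.68 to 6.39). For DNMT3B upon PTS they did in 2 of 36 (5.56%, interval 1.54 to 18.1). In each list the insulator interval lay above the share in all peaks, but upon PTS it overlapped that of active promoter peaks. Within 50 bases of the summit the shares were lower, at 3.19% for DNMT3B in vehicle, 12% for DNMT3B upon PTS, 4.26% for OCT1 in vehicle and 2.04% for OCT1 upon PTS, against 0.398%, 0.519%, 0.616% and 0.491% of all peaks. The cores lay at median distances of 67.5, 33.5, 49.5 and 78 bp from the summit in the same order. The 851 insulator peaks of pileup 13 or more fell into 765 separate places, and 69 of these held the core. A peak without the core may hold a weaker CTCF site, which was not searched.

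**Figure D1:**
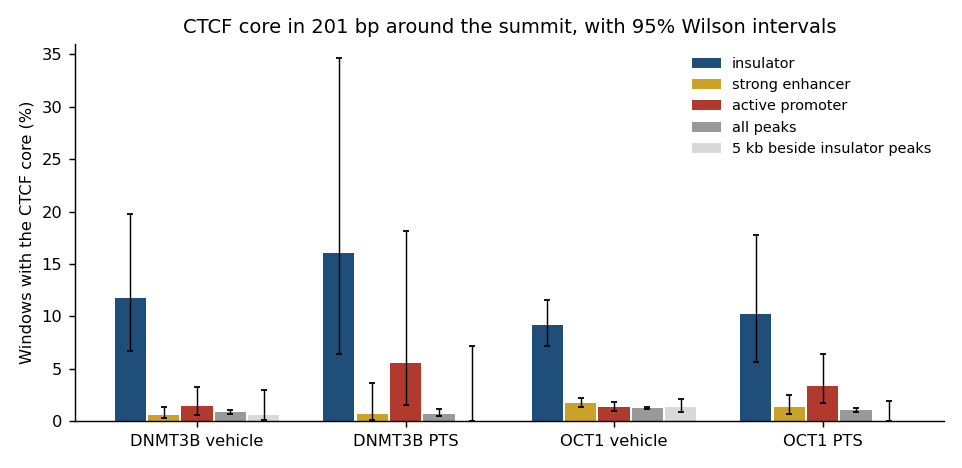
Share of summit windows with the CTCF core (percent, y axis) by peak list and class of window, with error bars for 95% Wilson intervals. The insulator bars reach 9.12% to 16%, and the bars of all peaks stay between 0.705% and 1.26%.

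In the OCT1 vehicle list the core was more frequent where the insulator state stood alone. In its peaks with no further state it lay in 30 of 200 (15.0%, interval 10.7 to 20.6), against 30 of 458 (6.55%, interval 4.63 to 9.20) where a further state was listed. These intervals do not overlap. DNMT3B in vehicle held it in 8 of 33 and in 3 of 61, and OCT1 upon PTS in 7 of 24 and in 3 of 74. DNMT3B upon PTS held it in 4 of 11 and in none of 14. The most frequent second state of OCT1 vehicle peaks was heterochromatin or low signal, with 245 peaks, followed by weak transcription with 120. Upon PTS these were 29 and 25 of the 98 OCT1 peaks. DNMT3B had 30 and 17 of 94 in vehicle and, upon PTS, no heterochromatin and 6 of 25 with weak transcription.

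The share of OCT1 insulator peaks with the octamer that OCT1 binds did not differ from that of OCT1 peaks at large beyond counting error. It lay in 5 of 658 in vehicle (0.760%, interval 0.325 to 1.77), against 0.498% of all OCT1 vehicle peaks and 1.60% of the windows 5 kb away. None of the 98 OCT1 peaks upon PTS, the 94 DNMT3B peaks in vehicle or the 25 upon PTS held it, with Wilson intervals that reach 3.77%, 3.93% and 13.3%. Besides *KCNJ6* and *GABBR2*, it lay at *ANKRD11*, *BOC* and *FAM201A*. All 5 places were listed by OCT1 in vehicle alone, with pileups of 18, 16, 15, 15 and 15. The pileup is the number of reads, each extended to the 200 bp of a fragment, that lie over the summit.

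The median pileup of insulator peaks was close to that of all peaks of the same list. OCT1 pileups ran from 12 to 36 in vehicle, with a median of 16, and from 13.8 to 49.5 upon PTS, with a median of 17.8. DNMT3B pileups ran from 12 to 30 in vehicle, with a median of 15, and from 13.7 to 27.4 upon PTS, with a median of 18.3. Over all peaks outside the crowded intervals the median was 15 for both antibodies in vehicle, and 19.2 for DNMT3B and 17.8 for OCT1 upon PTS. The highest of all peaks reached 400, 364, 399 and 396 in the lists of DNMT3B vehicle, DNMT3B PTS, OCT1 vehicle and OCT1 PTS, so no insulator peak was among the highest. The lists began at different pileups, at 11 in both vehicle lists, 12.8 for DNMT3B PTS and 12.9 for OCT1 PTS. PTS pileups had been scaled by the authors, with 1 read worth 0.913 for DNMT3B and 0.990 for OCT1. The background implied 43200000 to 47700000 reads in a list.

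The distance to the gene assigned by the authors was 0 for 47.3% of OCT1 vehicle insulator peaks, against 55.9% of all OCT1 vehicle peaks. For DNMT3B in vehicle the shares were 34.0% and 49.5%, and upon PTS they were 42.9% and 49.4% for OCT1 and 28% and 39.9% for DNMT3B. By the gene models, of the OCT1 vehicle peaks 321 of 658 had their summit in an intron, 262 between genes, 22 in a coding exon, 26 in a UTR and 27 in a noncoding exon. DNMT3B in vehicle had 45 of 94 in introns and 41 between genes. The start of the nearest coding gene lay at a median distance of 25.6 kb for OCT1 in vehicle, 38.7 kb for OCT1 upon PTS, 33.7 kb for DNMT3B in vehicle and 34.6 kb for DNMT3B upon PTS. Within 1 kb of such a start there were 18 OCT1 vehicle peaks, 5 OCT1 PTS peaks, 3 DNMT3B vehicle peaks and 1 DNMT3B PTS peak.

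Of the 765 places, 653 had a listed peak in 1 list alone, 70 in 2, 29 in 3 and 13 in all 4 lists. OCT1 in vehicle alone accounted for 559 places, OCT1 upon PTS alone for 42, DNMT3B in vehicle alone for 44 and DNMT3B upon PTS alone for 8. The places in 1 list had a median pileup of 15.8 and reached 25, whereas the highest pileup of the places in all 4 lists ran from 18.8 to 49.5, with a median of 26.5. Where a place had a listed peak whose first state was another one, that peak's pileup was taken as well.

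**Figure D2:**
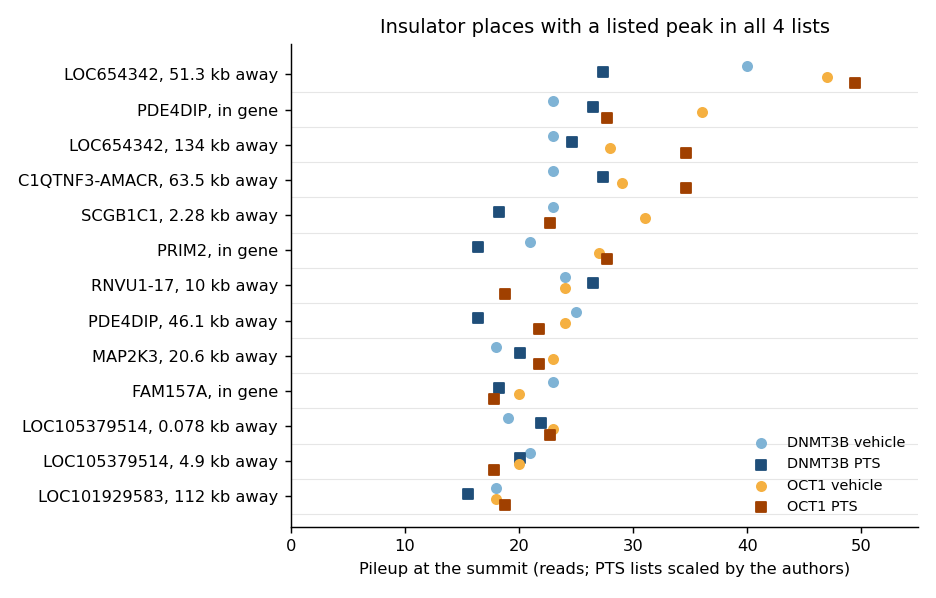
Pileup at the summit (x axis, reads, with PTS lists scaled by the authors) at the 13 insulator places with a listed peak in all 4 lists (y axis, gene assigned by the authors and its distance from the highest peak). The place near *LOC654342* reaches 49.5 for OCT1, and the lowest place, near *LOC101929583*, runs from 15.5 to 18.8.

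The highest of the 13 places lay between genes 51.3 kb from *LOC654342*, at chr2:91772337-91773368. Its DNMT3B pileup was 40 in vehicle and 27.4 upon PTS, and its OCT1 pileup was 47 and 49.5. The DNMT3B and OCT1 pileups of vehicle came from peaks whose first state was not the insulator state. A second place, 134 kb from the same gene at chr2:91690720-91691121, had DNMT3B pileups of 23 and 24.65 and OCT1 pileups of 28 and 34.6. At both places the OCT1 pileup was above that of DNMT3B in each treatment. The antibodies had separate inputs, read depths and scalings, so this does not rank their binding.

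*PDE4DIP* encodes myomegalin, which anchors proteins at the Golgi and the centrosome. A place in its intron had DNMT3B pileups of 23 in vehicle and 26.5 upon PTS, and OCT1 pileups of 36 and 27.7. The OCT1 value in vehicle was the highest insulator peak of that list. A place 46.1 kb from the gene, at chr1:145122271-145122696, had DNMT3B pileups of 25 and 16.4 and OCT1 pileups of 24 and 21.8. The DNMT3B pileup was thus higher upon PTS at the intronic place and lower at the outer one, where the vehicle peak had another first state. The intervals of the PTS to vehicle ratio, 0.643 to 2.08 and 0.338 to 1.25, both held 1, so an opposite change was not shown.

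An intron of *GUSBP18* 63.5 kb from *C1QTNF3-AMACR*, at chr5:34188093-34188674, had DNMT3B pileups of 23 and 27.4 and OCT1 pileups of 29 and 34.6. It was higher upon PTS with both antibodies. The place in the intron of *BET1L*, a SNARE protein of the Golgi, 2.28 kb from the secretoglobin gene *SCGB1C1* had DNMT3B pileups of 23 and 18.3 and OCT1 pileups of 31 and 22.8. The highest pileup there was lower upon PTS with both antibodies, but the summits lay apart. For DNMT3B they were at 190700 in vehicle and 189815 upon PTS, and for OCT1 at 189927 and 190658. Only the summit windows of DNMT3B upon PTS and of OCT1 in vehicle held a CTCF core among these. *PRIM2*, the large subunit of DNA primase, had an intronic place at chr6:57412253-57412789, with DNMT3B pileups of 21 and 16.4 and OCT1 pileups of 27 and 27.7. The CTCF core lay in the summit windows of both OCT1 peaks there and not in that of the DNMT3B PTS peak. The DNMT3B pileup of vehicle came from a peak with another first state.

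The third of the 13 places with a core lay 10 kb from *RNVU1-17*, a variant U1 small nuclear RNA gene, at chr1:149204230-149204731. DNMT3B pileups there were 24 and 26.5 and OCT1 pileups 24 and 18.8. Near *MAP2K3*, a kinase that activates p38, the place at chr17:21239118-21240516 had DNMT3B pileups of 18 and 20.1 and OCT1 pileups of 23 and 21.8. The other 4 places lay at *FAM157A*, at 2 spots near *LOC105379514* and near *LOC101929583*, with pileups from 15.5 to 23 over the 4 lists.

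Some of these places had sequences that occur more than once in the genome. Counting as a copy any other stretch that matched 80% or more of a peak at 90% identity or more, copies were found for 8 of the 13 places in all 4 lists (61.5%) and for 36 of the 653 in 1 list (5.51%). By list, 13 of 94 DNMT3B vehicle peaks, 7 of 25 DNMT3B PTS peaks, 42 of 658 OCT1 vehicle peaks and 18 of 98 OCT1 PTS peaks had such a copy. Among OCT1 vehicle peaks the share was 27.5% (interval 17.1 to 40.95) at a pileup of 20 or more and 4.77% (interval 3.32 to 6.81) from 13 to under 20. OCT1 upon PTS had 45.5% (interval 26.9 to 65.3) and 10.5% (interval 5.43 to 19.4). The place near *C1QTNF3-AMACR* had up to 17 copies and the one near *SCGB1C1* up to 13, while the intronic *PDE4DIP* and *PRIM2* places had none. A place counted as having a copy if any of its peaks did, so places in more lists had more peaks that could count. The share with a copy over all peaks was not computed. Reads from such copies can be placed at either one, and the part of copies in the pileups was not tested.

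For the comparison of treatments, insulator peaks of pileup 13 or more of either treatment were joined into regions wherever they shared a base. The ratio of PTS to vehicle pileup was taken where both treatments had at least 13, and the peak of the other treatment there could have any state. For DNMT3B, 16 of 106 regions had both, 9 of them with an insulator peak in each treatment. Their median ratio was 0.888 (order-statistic interval 0.783 to 1.15), with 6 regions higher upon PTS and 10 higher in vehicle, and over all DNMT3B peaks it was 0.982. Its side of 1 was not stable, since it was 1.07 with a pileup minimum of 20 and 1.10 over the 9 regions with an insulator peak in each treatment. No region was at least 1.5-fold higher upon PTS, a rise that 1.73% of all DNMT3B regions had. The only region at least 1.5-fold higher in vehicle was the outer place of *PDE4DIP*, and 1.53% of all regions passed that fold. Its vehicle peak had another first state, and the call was lost with unscaled reads, with a pileup minimum of 20, at a fold of 2, without peaks that have a copy elsewhere and with an insulator peak asked for in each treatment.

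The lowest DNMT3B ratios after *PDE4DIP*, at 0.658 (exact interval 0.338 to 1.25), were 0.685 at *LOC654342* (interval 0.412 to 1.13), 0.761 near *FOXJ1* and 0.783 at *PRIM2*. *FOXJ1* encodes a transcription factor for motile cilia, and its place in an intron of *EXOC7*, an exocyst subunit, had pileups of 30 and 22.8 with DNMT3B and no listed OCT1 peak. The highest ratios were 1.19 near *C1QTNF3-AMACR*, 1.16 near *LOC653786*, 1.15 near *SCCPDH* and 1.15 in the *PDE4DIP* intron. The *SCCPDH* place, at chr1:246859895-246860098, had pileups of 19 and 21.9 with DNMT3B and no listed OCT1 peak, and it held a CTCF core beside a tandem repeat of 42 bp. All 16 intervals held 1, so at this depth no single region differed beyond counting error.

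For OCT1, 74 of 696 regions had at least 13 in both treatments, 38 of them with an insulator peak in each. Their median ratio was 1.04 (interval 0.989 to 1.09), with 41 higher upon PTS and 33 higher in vehicle, and over all OCT1 peaks it was 1.05. With a pileup minimum of 20 it was 0.947. At least 1.5-fold higher upon PTS were 4 regions of 74, where 2.19% of all OCT1 regions passed. None was at least 1.5-fold higher in vehicle, where 1.75% of all OCT1 regions passed.

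The 4 OCT1 regions past the fold lay at *PLIN2*, *AFAP1L1*, *KMT2C* and *LURAP1L*, of which the last 2 had an insulator peak in each treatment. *PLIN2*, which encodes a coat protein of lipid droplets, had an intronic peak at chr9:19120129-19120402 with pileups of 16 in vehicle and 25.7 upon PTS, a ratio of 1.61 (interval 0.831 to 3.21). *AFAP1L1*, an actin filament-associated protein, had a peak in a coding exon with pileups of 13 and 20.8, a ratio of 1.60 (interval 0.764 to 3.48). *KMT2C*, a histone H3 lysine 4 methyltransferase often mutated in breast cancer, had an intronic peak at chr7:152091295-152091620 with OCT1 pileups of 20 and 30.7, a ratio of 1.53 (interval 0.847 to 2.84). DNMT3B was listed at the *KMT2C* place in vehicle, with a pileup of 19, and was not listed upon PTS, and the sequence has 1 near-identical copy elsewhere. *LURAP1L* had an intronic peak with pileups of 13 and 19.8, a ratio of 1.52.

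The lowest OCT1 ratios were 0.712 at a second place near *RNVU1-17* and 0.712 at a second place near *MAP2K3*, each with pileups of 25 and 17.8. They were followed by 0.717 near *LOC388692*, with 29 and 20.8, and 0.734 at *SCGB1C1*. The interval of each of the 74 regions held 1. A ratio needs a peak in both treatments, so regions that lost or gained a peak do not enter it.

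**Figure D3:**
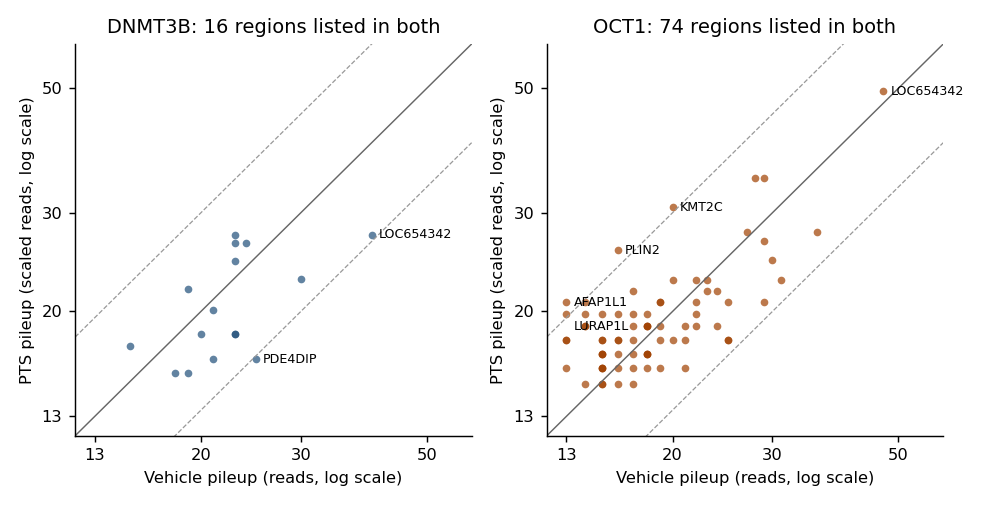
PTS pileup (y axis, scaled reads) against vehicle pileup (x axis, reads) on log axes, for 16 DNMT3B and 74 OCT1 insulator regions with at least 13 in both. The solid line marks equal pileups and the dashed lines 1.5-fold, and 1 DNMT3B region and 4 OCT1 regions lie past a dashed line.

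Most vehicle peaks were listed in that treatment alone, as most vehicle peaks of the lists were. Each list is described by the authors as enriched in its treatment, and the part of this in the shares was not tested. For DNMT3B, 77 of 90 vehicle insulator peaks of pileup 13 or more had no PTS peak (85.6%, interval 76.8 to 91.4), and 87.1% of all DNMT3B vehicle peaks had none. Upon PTS, 13 of 25 had no vehicle peak (52%, interval 33.5 to 69.97), and 39.4% of all had none. For OCT1, 580 of 638 vehicle insulator peaks had no PTS peak (90.9%, interval 88.4 to 92.9), and 92.2% of all OCT1 vehicle peaks had none. Upon PTS, 42 of 98 OCT1 peaks had no vehicle peak (42.9%, interval 33.5 to 52.7), and 51.6% of all had none. Each interval held the share of all peaks.

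Whether a peak was listed in both treatments went with its pileup. Of the DNMT3B vehicle insulator peaks, 2 of 47 from 13 to under 16 had a PTS peak, 2 of 34 from 16 to under 20, all 8 from 20 to under 25 and the only 1 of 25 or more. Over all DNMT3B vehicle peaks these shares were 3.25%, 8.55%, 42.4% and 93.4%. Of the OCT1 vehicle insulator peaks, 15 of 307, 22 of 280, 11 of 40 and 10 of 11 had a PTS peak, and over all OCT1 vehicle peaks the shares were 3.78%, 7.95%, 25.2% and 87.5%. Vehicle peaks listed upon PTS were also longer, with a median of 387 bp against 238 bp for DNMT3B and 371 bp against 271.5 bp for OCT1. No listed peak was under 200 bp, and a place without a listed peak can still hold reads below the list's limit, whose part in these counts was not tested.

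**Figure D4:**
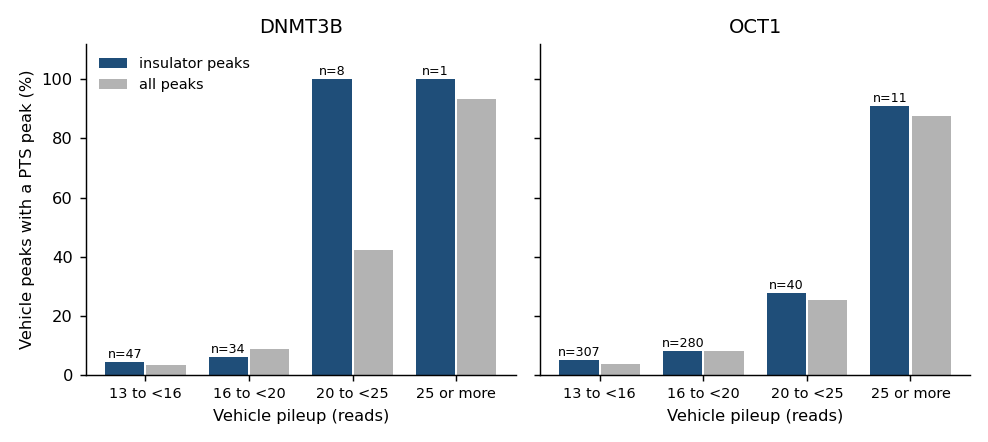
Share of vehicle peaks with a listed PTS peak (percent, y axis) by vehicle pileup (x axis, reads), for insulator peaks (blue, with their number) and all peaks (grey). The insulator share goes from 2 of 47 to 8 of 8 and 1 of 1 for DNMT3B and from 15 of 307 to 10 of 11 for OCT1.

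DNMT3B and OCT1 peaks coincided at insulators about as often as elsewhere. In vehicle, 41 of 90 DNMT3B insulator peaks of pileup 13 or more shared a base with an OCT1 peak (45.6%, interval 35.7 to 55.8), where 41.8% of all DNMT3B peaks did. Conversely, 42 of 638 OCT1 insulator peaks shared a base with a DNMT3B peak (6.58%, interval 4.91 to 8.78), where 6.68% of all OCT1 peaks did. Upon PTS, 12 of 25 DNMT3B insulator peaks shared a base with OCT1 (48.0%, interval 30.03 to 66.5), where 56.4% of all did. For OCT1 upon PTS it was 17 of 98 (17.3%, interval 11.1 to 26.04), where 12.2% of all did. Each interval held the share of all peaks. The share rose with pileup, from 10 of 307 OCT1 vehicle peaks under 16 to 15 of 51 at 20 or more, and over all OCT1 vehicle peaks from 2.98% to 34.9%.

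Places listed by both antibodies in vehicle included *LOC388692*, with DNMT3B at 19 and OCT1 at 29, and *IL33*, an epithelial alarmin cytokine, with a place where DNMT3B was at 16 and OCT1 at 22. At *LOC388692* and *IL33* OCT1 was also listed upon PTS, with pileups of 20.8 and 18.8, and DNMT3B was not. *SLC24A2*, which encodes a sodium, calcium and potassium exchanger, had a place with a CTCF core and pileups of 16 for DNMT3B and 22 for OCT1 in vehicle. Upon PTS only OCT1 was listed there, at 15.8. The reverse order held near *RANBP6*, where a place had DNMT3B pileups of 19 in vehicle and 15.5 upon PTS and OCT1 was listed in vehicle alone, at 16. The place held a core, but not in the summit window of its DNMT3B insulator peak of either treatment. That peak had a pileup of 14 in vehicle, and the value of 19 came from a peak with another first state.

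Other high peaks had no peak of the other antibody, or had one in a single treatment. *GUSBP1* had an intronic place with OCT1 pileups of 30 in vehicle and 24.7 upon PTS, whose sequence has 16 near-identical copies. *RTN4IP1*, a mitochondrial protein, had an intronic place with a CTCF core that DNMT3B alone listed, in vehicle, at 18. A place 47.7 kb from *LOC105379514*, at chr4:190649115-190649958, had OCT1 pileups of 29 in vehicle and 26.7 upon PTS and a DNMT3B pileup of 19.2 upon PTS alone. *ESPNP* had OCT1 pileups of 22 and 22.8 and a DNMT3B pileup of 17.4 upon PTS. *MIR5195*, with the core printed above, was listed by OCT1 in vehicle alone, at 25, and has 6 near-identical copies.

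Genes of 7 lists known for insulators, breast cancer or the pathways under study were looked up among the genes assigned to insulator peaks. Of all genes with an OCT1 peak in vehicle, 4.03% had an insulator peak, and of those with a DNMT3B peak 2.44% had one. Of 32 breast cancer genes 29 had an OCT1 peak of any state in vehicle and 1, *KMT2C*, had an insulator peak. Of 22 mammary epithelial genes 21 had an OCT1 peak in vehicle and none had an insulator peak in any of the 4 peak lists. Of 25 imprinted genes, 17 had an OCT1 vehicle peak and 1 an insulator peak, in an intron of *KCNQ1*, a potassium channel gene of an imprinted cluster, with a pileup of 15. Of 18 CTCF and cohesin genes, 10 had an OCT1 vehicle peak and 1 an insulator peak, 7.09 kb from *ZNF143*, a zinc finger factor found at loop anchors, with a pileup of 14.

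Of 35 genes of the HOX and protocadherin clusters, 14 had an OCT1 peak of any state in vehicle and 5 upon PTS. In each of these treatments 2 had an insulator peak, both from the same peak, and no HOX gene had one. Of all genes with an OCT1 peak upon PTS, 3.08% had an insulator peak. The 2 places lay at clustered protocadherins, cell surface proteins of neurons whose promoters are chosen through CTCF. An OCT1 vehicle peak of pileup 17 lay in a UTR within the cluster that holds *PCDHGA1* and *PCDHGB1*, at chr5:140787514-140787820. An OCT1 PTS peak of pileup 15.8 lay in a coding exon of the cluster that holds *PCDHA1* and *PCDHA4*, at chr5:140262269-140262469, and held a CTCF core. Of 20 calcium channel genes, 17 had an OCT1 vehicle peak of any state and 2 had an OCT1 vehicle insulator peak. *CACNA1E*, an R-type channel, had 5 such peaks with pileups from 13 to 15, 1 of them with a CTCF core, and *CACNA1H*, a T-type channel, had 1 of 16. Of 32 Notch and Wnt genes, 29 had an OCT1 vehicle peak of any state and 3 had an OCT1 vehicle insulator peak. They were the ligand *JAG1* with a pileup of 13, the receptor *NOTCH3* with 16 and the coactivator *MAML1* with 15. Other than *KMT2C*, no gene of the 7 lists had a DNMT3B insulator peak in either treatment.

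Insulator peaks were concentrated on a few chromosomes, as all peaks were. Chromosomes 1, 3, 5 and 9 make up 26.7% of the length of chromosomes 1 to 22 and held 393 of 658 OCT1 vehicle peaks (59.7%, interval 55.9 to 63.4), against 62.4% of all OCT1 vehicle peaks. DNMT3B in vehicle had 70 of 94 there (74.5%, interval 64.8 to 82.2), against 74.4% of all its peaks. Chromosome 9 alone held 130 OCT1 vehicle peaks (19.8%, against 20.7% of all) and 32 DNMT3B vehicle peaks (34.0%, against 30.65% of all). Upon PTS it held 17 of 98 OCT1 insulator peaks (17.3%, interval 11.1 to 26.04), where 30.5% of all OCT1 PTS peaks lay there. Chromosome 1 held 26 of the 98 (26.5%, interval 18.8 to 36.04), against 16.9% of all. The number of copies of each chromosome in these cells was not measured here, and its part in these shares was not tested.

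The 5 Mb with the most OCT1 vehicle insulator peaks was at 135 to 140 Mb of chromosome 9, with 23 insulator peaks of 1487 peaks, followed by 130 to 135 Mb of chromosome 5, with 21 of 1560.

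**Figure D5:**
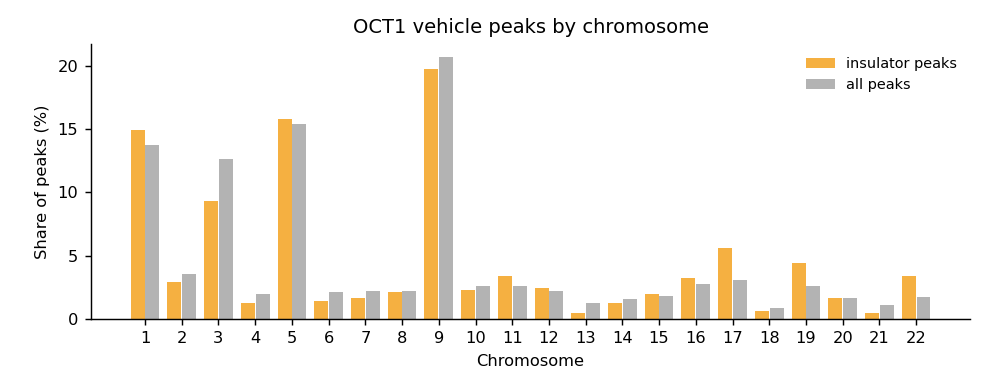
Share of OCT1 vehicle peaks on each chromosome (percent, y axis), for insulator peaks (orange) and all peaks (grey). Chromosomes 9, 5 and 1 hold the tallest bars of both kinds, and chromosome 9 holds 19.8% of the insulator peaks.

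The median GC of insulator windows was above that of all peaks of the same list and of the windows 5 kb away. Median GC was 55.2% for OCT1 in vehicle, against 53.7% for all peaks and 48.8% beside them. It was 51.7% for OCT1 upon PTS, against 50.75% and 46.8%. For DNMT3B in vehicle it was 49.8%, against 49.25% and 43.8%, and for DNMT3B upon PTS 50.2%, against 47.3% and 45.8%. Higher GC was not particular to insulator peaks. Strong enhancer windows had medians as high or higher, at 55.2%, 52.2%, 51.2% and 51.2% in that order of lists. The median number of CpG sites in a window, the sites DNMT3B can methylate, was 4, 2.5, 2 and 2 in the same order, whereas active promoter windows of OCT1 in vehicle had a median of 14. Methylation itself was not measured by these lists. Tandem repeats of at least 24 bp lay in 3 DNMT3B vehicle peaks (3.19%), 2 DNMT3B PTS peaks (8%), 4 OCT1 vehicle peaks (0.608%) and none of the 98 OCT1 PTS peaks. The shares in all peaks were 3.94%, 9.20%, 0.881% and 1.69%, which lay within the Wilson interval of each insulator share.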

How the data were processed

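ChIP-seq for DNMT3B or OCT1 came from MCF10CA1a cells with PTS or vehicle, and groups follow the sample labels. Reads had been trimmed (cutadapt), aligned to GRCh37/hg19 (BWA) and cleared of duplicates and low quality by the authors. They pooled the 3 replicates for MACS2, with pooled inputs as background, 200 bp fragments and an effective genome of 2700000000. Versions are not given in the sources used here. Genes came from ChIPseeker and states from the Broad HMEC ChromHMM track. The deposited pileup is a signal at the summit. Fold enrichment, as deposited, is the ratio of pileup plus 1 to background plus 1. The authors also deposited −log10 p-values, which were read and not used for calls, and P-value and Q-value scores, which were not used.

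Members and gene lists were chosen with earlier results of these data known. Peaks were the same place when they shared 1 base. Ratios used pileups of 13 or more in both treatments, with exact intervals that treat pileups as counts. Shares have Wilson intervals. Named are the genes of the 8 highest members of each list, the 4 highest and 4 lowest ratios, the 6 highest places in all lists, the 4 highest members of each antibody with a CTCF core, and, for a gene list, at most 4 members. Others were added after their values were seen, and some items are not reported here. Alternatives covered minimum, scaling, overlap, state, crowding, fold, merging and window. Sequences came from GRCh37 and annotation from GENCODE 44 lifted to it. Copies were searched with minimap2 2.31-r1302 after the data were seen. Scripts ran under scipy 1.17.1, numpy 2.4.6, pandas 2.3.3, pysam 0.24.0, matplotlib 3.10.9 and python 3.11.15, and were tested on simulated peaks.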

Additional observations from a re-analysis of the deposited data

How the results depend on the processing

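Of 136 alternative values, 109 stayed within the main interval, or within 1.5 times a count, and 27 moved beyond it. With a pileup minimum of 20 the OCT1 median ratio went from 1.04 to 0.947 and that of DNMT3B from 0.888 to 1.07, each across 1. With an insulator peak in both treatments, an alternative chosen after seeing the data, the DNMT3B ratio was 1.10 and that of OCT1 1.05. With the minimum of 20, listed in 1 treatment alone were no DNMT3B vehicle peaks (0%), 30% of DNMT3B PTS, 58.8% of OCT1 vehicle and 9.09% of OCT1 PTS peaks, and the shares with the other antibody were 77.8% for DNMT3B vehicle, 15.7% for OCT1 vehicle and 31.8% for OCT1 PTS. The one DNMT3B region 1.5-fold higher in vehicle was lost with a minimum of 20, with unscaled reads, at a fold of 2, with an insulator peak in both treatments and without members that have a copy (0 in each case), the last also chosen after seeing the data. The 4 OCT1 regions higher upon PTS became 1 with a minimum of 20, 0 at a fold of 2 and 2 with an insulator peak in both treatments, and with crowded intervals kept 4 were higher in vehicle. Counting any listed state gave 171 and 40 DNMT3B peaks in vehicle and upon PTS and 1164 and 167 OCT1 peaks. A gap of at most 200 bp gave 8.93% of OCT1 vehicle peaks with DNMT3B. The CTCF core share within 50 bases of the summit was 3.19% for DNMT3B vehicle, 4.26% for OCT1 vehicle and 2.04% for OCT1 PTS, and the octamer share of OCT1 vehicle within 50 bases was 0.304%. Over whole OCT1 vehicle peaks the core share was 12.2%. The cause was not tested beyond the smaller windows and sets these settings make.

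No paired analysis was possible because each list pools the 3 replicates, and for the same reason no replicate could be left out in turn. Low pileups limit single ratios, since even the region with the highest OCT1 pileups, near *LOC654342*, had an interval of 0.693 to 1.60 around 1.05.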
